A study of Mus musculus with 9 samples.

Results

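The 9 transcripts described here encode the mouse Fc gamma receptors and the proteins that carry their signal: the receptors Fcgr1, Fcgr2b, Fcgr3 and Fcgr4, the signaling chain Fcer1g, the tyrosine kinases Syk and Lyn, and the effectors Vav1 and Plcg2. They were taken by gene symbol from a table of 55367 genes. All 9 passed the filter on low counts, as did 15365 genes in the whole table. RNA-Seq was performed on whole osteosarcoma (OS) tumors that arose in genetically engineered mouse models (GEMMs). The p53-driven tumors (n = 4) had the genotype Col2.3-Cre/TrpP53fl/+, in which the Col2.3 promoter drives Cre in osteoblasts and 1 copy of the p53 gene is floxed. The Myc-knockin tumors (n = 5) carried Cre and the same heterozygous floxed p53 allele (p53fl/+) and, in addition, c-MycT58A behind a Lox-Stop-Lox (LSL) cassette, an allele that Cre switches on. The comparison asks how these receptors and their signaling partners differ between OS tumors with and without the Myc allele. The labels used here give no age, and in whole tumors fewer cells of a type and less RNA per cell cannot be told apart.

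The labels do not name the columns of the table. The names F187, F325, F331, F368, M408 and M624 are listed by genotype in the study's supporting data, while M351, M9 and M664 were placed in the Myc-knockin group by their letter alone. Myc itself had 54.3 CPM in the p53-driven tumors and 577 CPM in the Myc-knockin tumors (log2 fold change 3.41, edgeR adjusted p = 0.0217), without overlap between the groups. Total counts ranged from 2716322 to 17073285. Reads on 12 satellite-repeat genes made up 23.2% to 81.0% of the counts in 4 libraries (F187, M351, M408 and M9), against at most 0.0242% in the other 5. In M624 and M664 the small nuclear RNA Rn7sk was at 5.33 and 9.32 CPM of the non-satellite counts, against at least 8860 in the other 7. Both sets of libraries stand apart from the rest, and each gene's log2 fold change without either set is given with its values.

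Fc gamma receptors bind the constant part of IgG and sit mainly on macrophages, monocytes, neutrophils, natural killer cells, B cells and mast cells. Fcgr1, Fcgr3 and Fcgr4 are activating receptors that need the Fcer1g chain, which carries an immunoreceptor tyrosine-based activation motif (ITAM). When IgG-coated targets cross-link the receptors, Src family kinases such as Lyn phosphorylate the ITAM, Syk docks on it, and Vav1 and Plcg2 pass the signal to the actin skeleton and to calcium. Fcgr2b is the inhibitory receptor and carries an immunoreceptor tyrosine-based inhibition motif (ITIM) that recruits phosphatases. In bone, osteoclasts also use ITAM adaptors, Syk and Plcg2 during their differentiation.

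The sequences that set the inhibitory and activating proteins apart are shown from the mm10 genome. The ITIM of Fcgr2b is encoded by 18 bases at chr1:170961071-170961088 on the minus strand, with capitals on the codons of the tyrosine and of the hydrophobic residues around it. The ITAM of Fcer1g is encoded by 45 bases between chr1:171229889-171230072 on the minus strand, which an intron splits, with capitals on the codons of both tyrosines and of the leucines that follow them. It covers residues 65 to 79 of the 86 in the protein, and the same search found an ITAM in none of the other 8 proteins. The third line is the longest run of coding bases, 129, that Fcgr2b and Fcgr3 share letter for letter. It is shown because a read inside it fits both genes equally well.
Fcgr2b ITIM: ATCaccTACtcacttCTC
Fcer1g ITAM: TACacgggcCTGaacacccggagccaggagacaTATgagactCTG
Fcgr2b and Fcgr3 shared run: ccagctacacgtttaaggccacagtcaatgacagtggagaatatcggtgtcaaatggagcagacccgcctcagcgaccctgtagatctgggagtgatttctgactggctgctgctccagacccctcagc

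This run lies at chr1:170966674-170968081 in Fcgr2b and at chr1:171054167-171057792 in Fcgr3, both on the minus strand and both across introns. Of the 76-base stretches in the annotated transcripts, 76 being the read length, 5.39% of those of Fcgr2b and 5.31% of those of Fcgr3 also occurred in another gene. For Fcgr3 that gene was Fcgr2b throughout. For Fcgr2b, 124 of the 311 shared stretches were with Cplx2, more than with any other gene. Counts on these stretches are uncertain. For Lyn the share was 14.3%, mostly with the pseudogene Gm11787, and for the other 6 genes it was 0. The genes for Fcgr2b (chr1:170958617-170976547), Fcgr4 (chr1:171018920-171029761), Fcgr3 (chr1:171051174-171064935) and Fcer1g (chr1:171229572-171234365) lie close together on chromosome 1. Fcgr1 lies at chr3:96282909-96293969, Lyn at chr4:3678115-3813122, Plcg2 at chr8:117498291-117635142, Syk at chr13:52583173-52648792 and Vav1 at chr17:57279100-57328031. An antisense gene, Gm38204, covers 2.68% of the exon bases of Fcgr2b, and the noncoding gene Gm26857 on the opposite strand covers 6.09% of those of Lyn.

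Promoters were searched on both strands for GAGGAA, the core letters that PU.1, a transcription factor of myeloid cells, prefers, and for CACGTG, the E-box that Myc and other factors bind. The motifs can share 1 base at their ends, and none of the promoters of these genes held both. The RefSeq table of GRCm38.p6 held 32851 promoters, each from 250 bases before to 50 after a start site, and 8 of the 9 genes had an entry. GAGGAA was in 28.3% of all promoters and in those of 5 of the 8 genes (Fcgr1, Fcgr3, Fcgr4, Syk and Vav1). CACGTG was in 7.15% of all promoters and, of the 8, in that of Plcg2. The 100 bases before the start sites of Fcgr1 (chr3:96293970-96294069, minus strand) and Plcg2 (chr8:117498175-117498274, plus strand) are shown because this receptor and this effector lay on opposite sides of 0 in the comparison below, with capitals on the motif, which reads TTCCTC in Fcgr1 because it lies on the other strand. This pair was picked by those same values. GAGGAA was also in promoters of Syk and Vav1, whose log2 fold changes were below 0. The promoter of Fcgr2b, with a log2 fold change above 0, held neither motif. Each match is only a match of letters.
Fcgr1 promoter: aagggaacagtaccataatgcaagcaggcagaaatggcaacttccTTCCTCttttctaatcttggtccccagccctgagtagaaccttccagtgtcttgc
Plcg2 promoter: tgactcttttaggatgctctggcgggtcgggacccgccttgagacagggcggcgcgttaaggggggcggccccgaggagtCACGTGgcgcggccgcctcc

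With all 9 tumors, no gene of the 9 passed edgeR's threshold, and the estimates for the receptors and for their partners had opposite signs. The 4 receptors had log2 fold changes (Myc-knockin against p53-driven) above 0, from 0.28 for Fcgr3 to 1.53 for Fcgr4, all with wide intervals. The chain, both kinases and both effectors had log2 fold changes below 0, from -0.51 for Vav1 to -1.14 for Plcg2. The difference between the 2 sets was not tested, and without the 4 satellite libraries 7 of the 9 estimates were below 0. Of the 9, 0 were called by edgeR's quasi-likelihood test with an adjusted p below 0.05 and more than a 1.5-fold change, a rule that called 5.27% of the 15365 genes tested. At an unadjusted p under 0.05, 3 of the 9 passed (Plcg2, Syk and Fcer1g), against 26.8% of all genes. DESeq2 called 1 of the 9, Plcg2, and 17.4% of all genes. Limma-voom with quality weights also called 1, Fcer1g, and 10.8% of all genes.

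The median log2 fold change was 0.49 over the 4 receptors and -1.03 over the other 5 genes, beside 0.14 over all genes tested. A log2 fold change below 0 was found for 5 of the 9 genes and for 43.8% of all genes. The median of all genes depends on the scaling, and was 0.03 with library size alone and 0.24 with upper-quartile normalization, so the sign of a difference of that size depends on the scaling. Of all genes, 348 (2.26%) were called higher in the Myc-knockin tumors and 461 (3%) lower. With upper-quartile normalization the split was 626 higher and 345 lower.

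**Figure D1:**
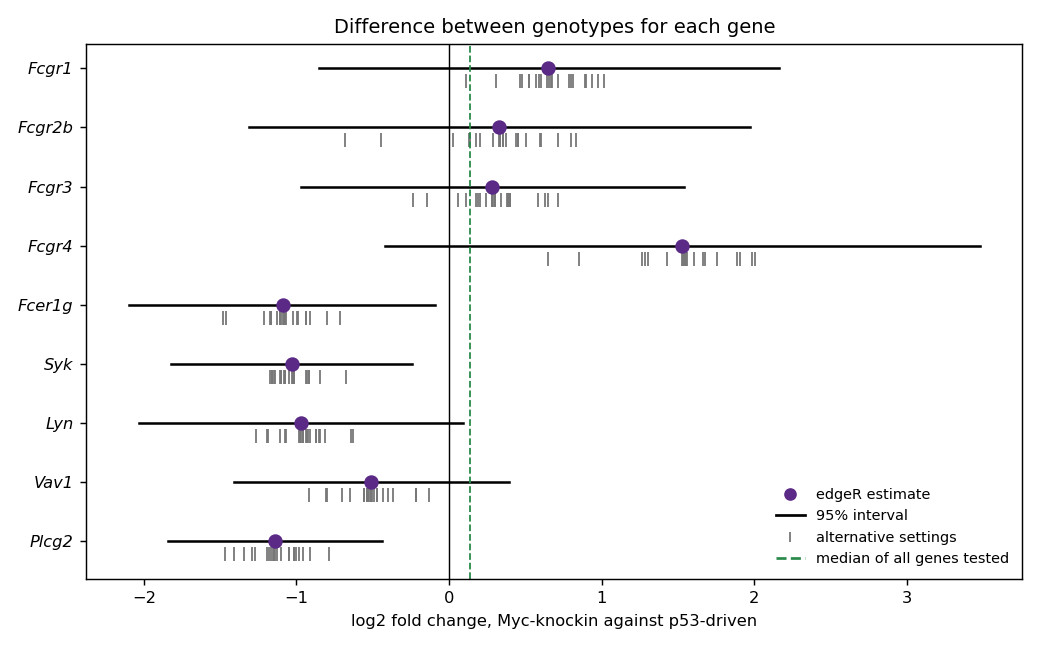
Log2 fold change of each gene between Myc-knockin and p53-driven tumors. Purple points are edgeR's estimates, black lines their 95% intervals, gray ticks the estimates under the alternative settings, and the dashed line marks the median of all genes tested (0.14). The 4 receptors sit to the right of 0 with intervals that cross it, whereas the intervals of Fcer1g, Syk and Plcg2 lie to the left of 0.

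Fcgr1 encodes the high-affinity receptor, which can hold single IgG molecules. In the p53-driven tumors it measured 1.18 CPM in F187, 10.3 in F325, 5.88 in F331 and 9.36 in F368. In the Myc-knockin tumors it measured 13.5 CPM in M351, 16.5 in M408, 5.58 in M9, 1.87 in M624 and 16.1 in M664. Thus, 3 of the 5 Myc-knockin tumors lay above every p53-driven tumor, while M624 and M9 lay within their range. The means were 6.69 ± 4.14 (SD, n = 4) and 10.7 ± 6.61 (SD, n = 5), a log2 fold change of 0.65 (95% interval -0.85 to 2.16, edgeR adjusted p = 0.572). It was 0.11 without the 4 satellite libraries and 0.89 without M624 and M664, and single tumors moved it to 0.31 (without F187) and 1.01 (without M624). The value in F187 rests on 3 counts, at the floor of 3, of which 1.8 would be expected from genomic background alone.

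Fcgr2b, the inhibitory receptor, had the widest range of the 4. The p53-driven tumors fell into a low pair, F187 with 8.69 CPM and F331 with 15.7, and a high pair, F325 with 41.6 and F368 with 42.4. The Myc-knockin tumors ran from 3.96 CPM in M624 to 92.3 in M408, with 16.6 in M351, 21.5 in M9 and 36.3 in M664. The groups overlapped, with 1 Myc-knockin tumor below and 1 above all p53-driven tumors, and the highest Myc-knockin tumor was 23.3-fold above the lowest. The means were 27.1 ± 17.5 (SD, n = 4) and 34.1 ± 34.5 (SD, n = 5), with a log2 fold change of 0.33 (95% interval -1.31 to 1.97, edgeR adjusted p = 0.811). It was -0.68 without the 4 satellite libraries and 0.80 without M624 and M664. With 1 tumor left out it was -0.45 (without M408), 0.02 (without F187) and 0.71 (without M624).

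Fcgr3, an activating receptor of low affinity that binds IgG in complexes, followed Fcgr2b closely from tumor to tumor. It measured 14.2 CPM in F187, 30.6 in F325, 17.2 in F331 and 46.6 in F368, and 22.8 CPM in M351, 68.7 in M408, 21.5 in M9, 7.51 in M624 and 44.5 in M664. Again M408 was the highest and M624 the lowest of all 9 tumors. The means were 27.1 ± 14.8 (SD, n = 4) and 33.0 ± 23.9 (SD, n = 5), and the log2 fold change was 0.28 (95% interval -0.97 to 1.54, edgeR adjusted p = 0.787). It was -0.23 without the 4 satellite libraries and 0.58 without M624 and M664, and -0.14 without M408, 0.06 without F187 and 0.63 without M624. Part of the likeness of Fcgr2b and Fcgr3 may be shared reads, as their common run above allows, and the size of that part was not tested.

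Fcgr4, an activating receptor of monocytes, macrophages and neutrophils, was the least abundant. It measured 0.790 CPM in F187, 2.88 in F325, 0.865 in F331 and 2.31 in F368. In the Myc-knockin tumors it measured 1.23 CPM in M351, 15 in M408, 2.39 in M9, 0.762 in M624 and 5.40 in M664. M408 and M664 lay above every p53-driven tumor, M351 and M9 among them, and M624 just below the lowest. The values in F187 and M351 are 2 counts each and that in M9 is 3 counts, at or under the floor. The means were 1.71 ± 1.05 (SD, n = 4) and 4.96 ± 5.91 (SD, n = 5), and the log2 fold change of 1.53 had a 95% interval from -0.42 to 3.48 (edgeR adjusted p = 0.296). It was 0.65 without the 4 satellite libraries and 1.99 without M624 and M664. The same tumor, M408, held the highest sum of 10 neutrophil markers, 150 CPM, against 4.08 to 36.3 in the other Myc-knockin tumors and 5.29 to 17.8 in the p53-driven tumors. The part of these cells in the Fcgr4 level was not tested.

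**Figure D2:**
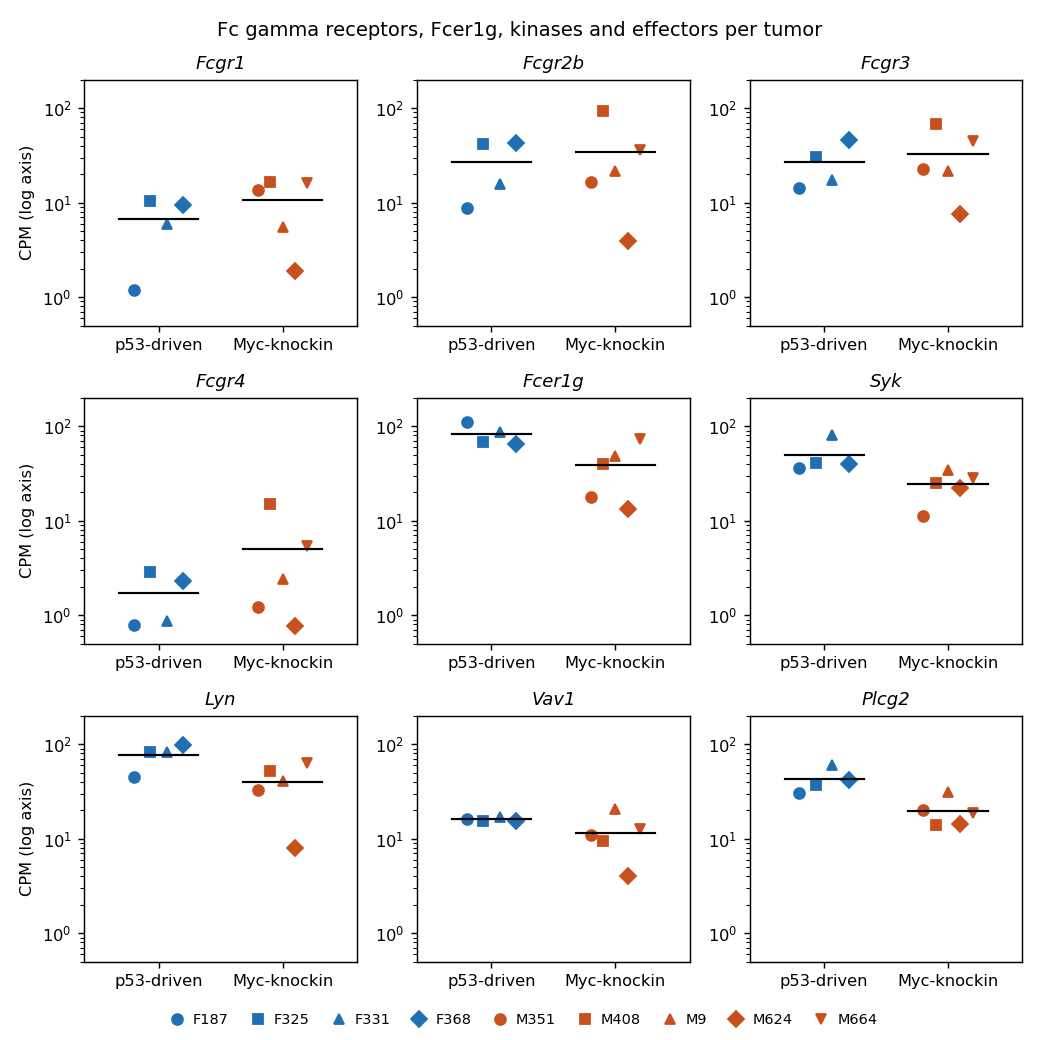
TMM-normalized CPM (log axis) of the 9 genes in each tumor, with p53-driven tumors in blue (n = 4) and Myc-knockin tumors in orange (n = 5). Black bars are group means. For the 4 receptors the groups overlap and M408 or M624 marks an end of the Myc-knockin range, whereas for Syk every Myc-knockin tumor (at most 34.3 CPM) lies below every p53-driven tumor (at least 35.9 CPM).

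Since a ratio of genes within a library does not depend on the scaling between libraries, each activating receptor was set against Fcgr2b as log2 reads per kilobase of exon. Fcgr3 exceeded Fcgr2b in every tumor, by 1.87 ± 0.47 (SD, n = 4) in the p53-driven and 1.98 ± 0.50 (SD, n = 5) in the Myc-knockin tumors. This difference of 0.12 was smaller than either SD (two-sided exact permutation test, p = 0.714). The excess within a tumor depends on the exon bases used as divisor, 5790 for Fcgr2b and 1736 for Fcgr3. In plain counts Fcgr2b exceeded Fcgr3 in F325 (535 against 393) and M408 (504 against 375). The counts were equal in M9 (27 each), and Fcgr3 was higher in the other tumors. The ratio of Fcgr1 to Fcgr2b was -0.91 ± 0.52 (SD, n = 4) and -0.22 ± 0.83 (SD, n = 5), a difference of 0.69 (exact permutation p = 0.190, adjusted over the 3 ratios 0.286). In M351 Fcgr1 exceeded Fcgr2b by 0.87, while in M408 the ratio was -1.32, within the p53-driven range.

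The ratio of Fcgr4 to Fcgr2b differed most. It was -0.97 in F187, -1.63 in F325, -1.91 in F331 and -1.96 in F368, and -1.25 in M351, -0.41 in M408, -0.77 in M9, -0.15 in M624 and -0.54 in M664. Only M351 and F187, the pair of libraries with 2 counts of Fcgr4, overlapped. The means were -1.62 ± 0.46 (SD, n = 4) and -0.62 ± 0.42 (SD, n = 5), a difference of 0.99 on the log2 scale (exact permutation p = 0.0317, adjusted over the 3 ratios 0.0952). The adjusted p misses 0.05, and the unadjusted exact p was over 0.05 in 10 of 13 alternatives. Without M624 and M664, and without the 4 satellite libraries, too few tumors remained for an exact p under 0.05. The difference remained above 0 in each alternative run, from 0.81 to 1.49.

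Fcer1g, the chain that Fcgr1, Fcgr3 and Fcgr4 share with the IgE receptor and other ITAM-dependent receptors, was not called by edgeR, with an estimate below 0. It measured 112 CPM in F187, 68.4 in F325, 86.7 in F331 and 64.9 in F368. The Myc-knockin values were 17.9 CPM in M351, 39.9 in M408, 48.6 in M9, 13.4 in M624 and 74.1 in M664. Here 4 of the 5 Myc-knockin tumors lay below every p53-driven tumor, and M664 lay among them. The means were 83.1 ± 21.6 (SD, n = 4) and 38.8 ± 24.6 (SD, n = 5), and the log2 fold change was -1.09 (95% interval -2.10 to -0.09, edgeR adjusted p = 0.155). It was -0.72 without the 4 satellite libraries and -1.17 without M624 and M664. The exact permutation test on log2 CPM gave p = 0.0476 before any adjustment over the 9 genes tested this way. Limma-voom called it at an adjusted p of 0.0323 with a log2 fold change of -1.48.

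Set against the chain, the mean ratios of the 4 receptors were higher in the Myc-knockin tumors. This view was chosen after the values were seen and is given as a description. Per kilobase, the log2 ratio of Fcgr4 to Fcer1g was -7.35 to -5.08 in the p53-driven tumors. In the Myc-knockin tumors it was -4.66 to -1.93, without overlap. That separation is uncertain, because Fcgr4 had 2 counts in F187, 2 in M351 and 3 in M9. Genomic background alone would be expected to give 0.89, 1.4 and 1.5 of these. Overlap after subtraction of background was not tested. The mean ratio of Fcgr3 to Fcer1g was -2.72 and -1.31, that of Fcgr2b -4.59 and -3.29, and that of Fcgr1 -5.50 and -3.51, all with overlapping groups. F187 and F331 had the lowest ratios for each of the 4 receptors. The kinases kept nearer to the chain: the mean ratio of Syk to Fcer1g was -4.22 and -3.92, and that of Lyn -2.34 and -2.21.

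**Figure D3:**
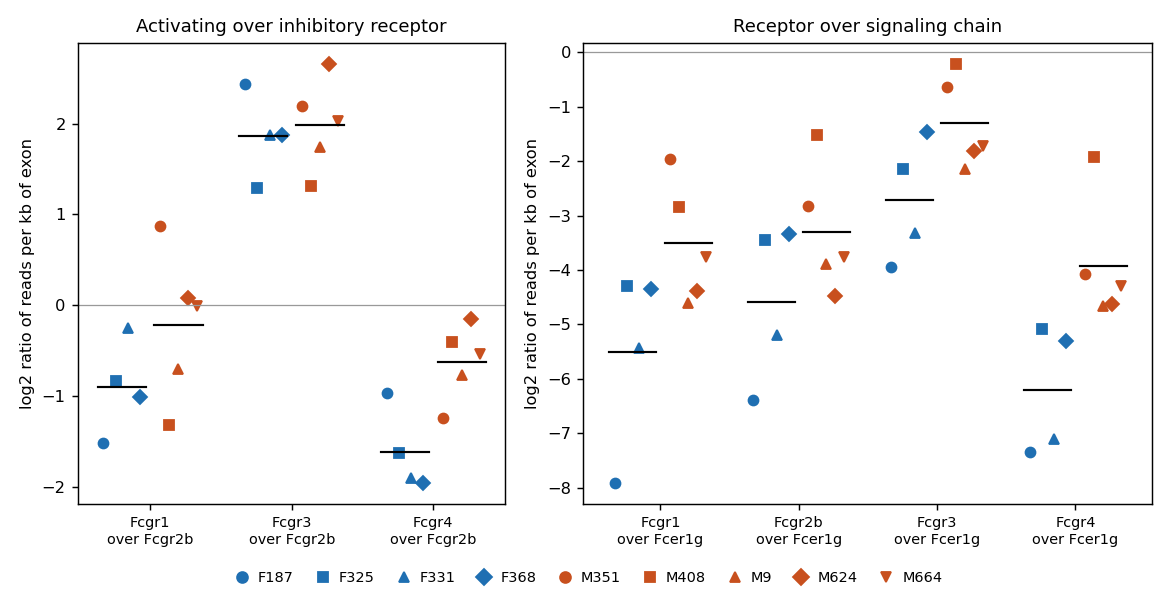
Log2 ratios of reads per kilobase of exon within each tumor, of activating receptors over Fcgr2b (left) and of the 4 receptors over Fcer1g (right), with group means as black bars (p53-driven, blue, n = 4; Myc-knockin, orange, n = 5). The Fcgr4 ratio to Fcgr2b averages -1.62 and -0.62, and its ratio to Fcer1g is the only one of those drawn whose groups do not overlap. Fcgr4 rests on 2 or 3 counts in F187, M351 and M9.

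Syk, the kinase that docks on phosphorylated ITAMs, was the only one of the 9 genes whose groups did not overlap, a separation that 7.54% of all genes showed in this direction. It measured 35.9 CPM in F187, 40.8 in F325, 80.7 in F331 and 40.0 in F368. In the Myc-knockin tumors it measured 11.1 CPM in M351, 25.3 in M408, 34.3 in M9, 22.1 in M624 and 28.6 in M664. M9 and F187 nearly touched, and F331 stood well above the other p53-driven tumors. The means were 49.4 ± 21 (SD, n = 4) and 24.3 ± 8.63 (SD, n = 5), with a log2 fold change of -1.03 (95% interval -1.82 to -0.24, edgeR adjusted p = 0.102). The exact permutation p was 0.0159, the smallest that 5 tumors against 4 allow. The value in M351 rests on 18 counts, of which 10 would be expected from genomic background. With F331 left out the log2 fold change was -0.68, without the 4 satellite libraries -1.07, and without M624 and M664 -1.02.

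Lyn, a Src family kinase that phosphorylates both ITAMs and the ITIM of Fcgr2b, measured 45.0 CPM in F187, 83.5 in F325, 83.6 in F331 and 98.6 in F368. It measured 33.2 CPM in M351, 52.4 in M408, 40.6 in M9, 7.96 in M624 and 64.1 in M664. The groups overlapped through F187 on one side and M408 and M664 on the other, and M624 was far below the rest. The means were 77.7 ± 22.9 (SD, n = 4) and 39.7 ± 21.2 (SD, n = 5), with a log2 fold change of -0.97 (95% interval -2.03 to 0.09, edgeR adjusted p = 0.223). Leaving out M624 brought it to -0.63, leaving out M624 and M664 to -0.81, and leaving out the 4 satellite libraries to -1.26. The pseudogene Gm11787 held at most 4 counts in any tumor.

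Vav1, an exchange factor that passes the signal to the actin skeleton, was nearly constant in the p53-driven tumors, with 16.2 CPM in F187, 15.5 in F325, 17 in F331 and 15.6 in F368. The Myc-knockin tumors spread around that level, with 11.1 CPM in M351, 9.52 in M408, 20.7 in M9, 4.00 in M624 and 12.7 in M664. All but M9 lay below every p53-driven tumor, and M9 lay above them all. The means were 16.1 ± 0.722 (SD, n = 4) and 11.6 ± 6.05 (SD, n = 5), and the log2 fold change of -0.51 had a 95% interval from -1.41 to 0.39 (edgeR adjusted p = 0.454). Without M624 it was -0.22, without M624 and M664 -0.21, and without the 4 satellite libraries -0.92.

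Plcg2, the phospholipase that produces the calcium signal, came nearest to the threshold. It measured 30.8 CPM in F187, 37.3 in F325, 60.6 in F331 and 41.8 in F368, and 20.3 CPM in M351, 13.9 in M408, 31.1 in M9, 14.4 in M624 and 18.9 in M664. M9 alone reached the p53-driven range, just above F187. The means were 42.6 ± 12.8 (SD, n = 4) and 19.7 ± 6.92 (SD, n = 5), a log2 fold change of -1.14 (95% interval -1.84 to -0.44, edgeR adjusted p = 0.0584, unadjusted 0.00411). DESeq2 called it at an adjusted p of 0.0121. Without M9 edgeR called it as well, with a log2 fold change of -1.34 and an adjusted p of 0.0272. It was -0.96 without M624 and M664 and -1.47 without the 4 satellite libraries. Over all edgeR, DESeq2 and limma-voom settings its adjusted p ranged from 0.0121 to 0.228.

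Levels between genes were compared per kilobase of exon. Fcer1g led in both groups, with 95 ± 24.7 CPM per kb (SD, n = 4) in the p53-driven and 44.4 ± 28.2 (SD, n = 5) in the Myc-knockin tumors. In the p53-driven tumors it was followed by Lyn (19.1), Fcgr3 (15.6), Plcg2 (9.92), Syk (5.27), Fcgr2b (4.68), Vav1 (4.36), Fcgr1 (2.59) and Fcgr4 (1.36), all as mean CPM per kb. In the Myc-knockin tumors the order was Fcgr3 (19.0), Lyn (9.74), Fcgr2b (5.90), Plcg2 (4.59), Fcgr1 (4.14), Fcgr4 (3.95), Vav1 (3.14) and Syk (2.59). In the Myc-knockin order, every pair of neighbors lay closer together than the larger of their SDs. In the p53-driven order the same held except between Fcer1g and Lyn, Plcg2 and Syk, and Vav1 and Fcgr1. By its mean, Syk stood above all receptors but Fcgr3 in the p53-driven tumors and below all 4 receptors in the Myc-knockin tumors.

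From tumor to tumor, the receptors varied with each other and the signaling genes with each other. Pearson's r on log2 CPM over the 9 tumors was 0.72 to 0.97 among the 4 receptors and 0.51 to 0.81 among the other 5 genes. Between a receptor and Syk it was -0.19 to 0.10, and between a receptor and Plcg2 -0.40 to 0.03. Lyn stood between, with 0.72 to Fcgr2b and 0.79 to Fcer1g. These correlations are descriptions over both genotypes, and the points share library type, depth and tumor composition.

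Fcgr1, Fcgr2b and Fcgr3 had differences of opposite sign in the 2 types of library, whereas the sign was the same in both for the other 6 genes. Among the 4 satellite libraries (F187 against M351, M408 and M9), the difference in mean log2 CPM was 2.99 for Fcgr1, 1.86 for Fcgr2b, 1.17 for Fcgr3 and 1.96 for Fcgr4. Among the other 5 libraries it was -0.55, -1.31, -0.66 and 0.20. For Fcer1g the 2 values were -1.78 and -1.20, for Syk -0.75 and -1.01, for Lyn -0.12 and -1.95, for Vav1 -0.31 and -1.14, and for Plcg2 -0.57 and -1.45. The satellite set has only 1 p53-driven tumor and the other set 2 Myc-knockin tumors, both with little Rn7sk, so these values carry no test. Without M624 and M664, edgeR called 0 of the 9 genes and 4.61% of all genes, and 5 of the 9 had an unadjusted p under 0.05, against 25.7% of all genes. Without the 4 satellite libraries it called 1 of the 9, Plcg2 (log2 fold change -1.47, adjusted p = 0.0291), and 27.9% of all genes.

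Markers of cells that can carry these genes were read in the same tumors. Among all genes, edgeR called 3% lower in the Myc-knockin tumors, and 26.8% had an unadjusted p under 0.05. Of 10 osteoclast markers 7 were called lower in the Myc-knockin tumors, with a median log2 fold change of -3.76 and sums of 2860 to 14600 CPM against 165 to 2650. F331, the tumor with the most Syk and Plcg2, also had the highest osteoclast sum. Of 15 macrophage markers 2 were called lower, Cd68 and Csf1r, with sums of 1040 to 1730 CPM against 530 to 1520. The list median was -0.47, with 12 genes below 0 and 3 above (Cd14 1.13, C1qb 0.56 and C1qa 0.17). Of 10 neutrophil markers 4 were tested and edgeR called 0, with a median of 1.91 and overlapping sums. Of these 4, 2 had an unadjusted p under 0.05 by edgeR, both higher in the Myc-knockin tumors. Of 10 leukocyte markers 2 were called lower, Lcp1 and Tyrobp, with sums of 559 to 1110 CPM against 179 to 457, without overlap. The median of this list was -1.31, with 8 genes below 0 and 2 above. Markers of B cells (13.1 to 35.1 CPM against 7.58 to 65.2), natural killer cells (1.70 to 13 against 0.419 to 25.5), T cells (5.96 to 25.3 against 4.50 to 50.2) and mast cells (22.5 to 32.9 against 4.99 to 64.5) were low, with overlapping sums. Of the 6 of their genes that were tested, edgeR called 0, 2 had an unadjusted p under 0.05, DESeq2 called 1 and limma-voom 0. Of 11 osteoblast markers, Bglap and Bglap2 were called lower, and the sums were 65700 to 141000 CPM against 3610 to 41400. With F325, F331 or F368 left out, 1 osteoclast marker and 0 macrophage, leukocyte or osteoblast markers were called by edgeR, though all 10 osteoclast markers kept an unadjusted p under 0.05. No listed marker was at 0 in every tumor. The part of these cells in the results for the 9 genes was not tested.

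Levels relative to leukocyte and macrophage markers depended on the marker chosen. Ptprc, the general leukocyte marker, averaged 86.4 ± 24.6 CPM (SD, n = 4) and 33.9 ± 17.7 (SD, n = 5), a log2 fold change of -1.37 (edgeR adjusted p = 0.0922). This is further below 0 than for any of the 9 genes, so all 9 had a positive difference relative to it. In log2 units that difference was 2.45 for Fcgr4, without overlap, 2.22 for Fcgr1, 1.64 for Fcgr3 and 1.53 for Fcgr2b, and 0.23 to 0.92 for the other 5. Relative to the mean of the 10 leukocyte markers the difference was above 0 for 6 of the 9, at 1.09 to 2.01 for the receptors, 0.48 for Vav1 and 0.09 for Syk, and it was -0.07 for Lyn and -0.21 for Fcer1g. Relative to the mean of the 15 macrophage markers it was 0.76 to 1.68 for the receptors and 0.15 for Vav1, and -0.54 for Fcer1g, -0.40 for Lyn, -0.33 for Plcg2 and -0.24 for Syk. Apart from Fcgr4 against Ptprc, the groups overlapped in every one of these differences, including those to the 10 leukocyte markers. For Fcgr4 against Ptprc the gap was narrow, from at most -4.64 in the p53-driven to at least -4.53 in the Myc-knockin tumors. Fcgr4 rests on 2 or 3 counts in F187, M351 and M9.

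The genes around the pathway were followed in 8 lists with 139 genes in the table, of which 107 were tested. By edgeR, 16 of these (15%) were called lower in Myc-knockin tumors and 0 were called higher, beside 5.27% called among all genes, and their median log2 fold change was -0.45. At an unadjusted p under 0.05, 42 of the 107 passed, 37 lower and 5 higher, against 26.8% of all genes. DESeq2 called 26 lower and 4 higher (28%, against 17.4% of all genes). Limma-voom called 22 lower and 1 higher (21.5%, against 10.8% of all genes). Without M624 and M664 the count was 15 of 98, 14 lower and 1 higher, against 4.61% of all genes. Without the 4 satellite libraries it was 22 of 110 (20%), 18 lower and 4 higher, a smaller share than the 27.9% of all genes. The count depended on single tumors, and the cause was not tested. With F325, F331 or F368 left out, 0 genes of the lists were called by edgeR. Of the 110 to 117 tested, 31 to 36 had an unadjusted p under 0.05, against 16.6% to 19.6% of all genes. In these 3 runs 5 to 8 genes of the whole table were called. Without F187 or without M351 the count for the lists was 6 (5.36% or 5.61%), against 2.03% or 2.44% of all genes. Without M624, M408, M664 or M9 it was 9, 10, 16 or 18 (8.82%, 9.35%, 16% or 16.8%). The shares of all genes in these runs were 2.62%, 5.47%, 4.87% and 10.4%.

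Other ITAM adaptors and the receptors that pair with them were called lower in part. Among all genes, edgeR called 3% lower, and 26.8% had an unadjusted p under 0.05. Of 12 tested ITAM adaptors and pairing receptors 3 were called lower, with a list median of 0.06. Of the 12, 6 were below 0 and 6 above. At an unadjusted p under 0.05 by edgeR, 3 were lower and 2 higher. DESeq2 called 5, of which 2 were higher, against 17.4% of all genes, and limma-voom called 1, against 10.8%. Tyrobp, the ITAM adaptor of myeloid cells also known as DAP12, averaged 77.4 ± 37.6 CPM (SD, n = 4) and 17.1 ± 12.3 (SD, n = 5), a log2 fold change of -2.13 (edgeR adjusted p = 0.0392). Oscar, an osteoclast receptor that pairs with Fcer1g, had a log2 fold change of -4.68 (adjusted p = 0.0195), and Siglec15, which pairs with Tyrobp in osteoclasts, -2.76 (adjusted p = 0.0480). Oscar and Tyrobp are also among the osteoclast and leukocyte markers above. Of 4 tested immunoglobulin Fc receptors outside the gamma family, edgeR, DESeq2 and limma-voom called 0, and 1 had an unadjusted p under 0.05 by edgeR. Among them Fcgrt, the neonatal receptor that recycles IgG, measured 42.3 ± 6.39 CPM (SD, n = 4) and 33.5 ± 22.5 (SD, n = 5), Fcrls had a log2 fold change of -1.23 (adjusted p = 0.128) and Trim21, the cytosolic IgG receptor, of 0.40 (adjusted p = 0.747). Likewise, all 3 tools called 0 of the 3 hemITAM receptors, with 0 at an unadjusted p under 0.05 by edgeR and log2 fold changes of 0.14 for Clec7a, 0.17 for Clec9a and 2.62 for Clec1b (adjusted p = 0.239).

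Of 16 tested ITIM receptors 1 was called, the myeloid lectin Clec12a with a log2 fold change of -2.38 (adjusted p = 0.0217). Of the 16, 13 were below 0. Among all genes 5.27% were called and 43.8% were below 0. In a list of phosphatases and Dok adaptors of ITAM signaling, not all of which oppose it, 1 of 11 tested genes was called. This was the receptor phosphatase Ptprj with -1.89 (adjusted p = 0.0328), and the list median was -1.03. Of 10 other Src, Syk and Tec family kinases, 1 was called, Src with 73.5 ± 19.5 CPM (SD, n = 4) against 19.9 ± 6.50 (SD, n = 5), a log2 fold change of -1.90 (adjusted p = 0.0188). Src is known for its need in bone resorption by osteoclasts.

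Downstream, 5 of 27 tested adaptors and effectors were called lower and 24 of the 27 were below 0, with a median log2 fold change of -0.76. Among all genes 3% were called lower and 43.8% were below 0. The 5 called were Nfatc1 (-2.23), the master transcription factor of osteoclasts, the adaptor Skap2 (-1.99), Pik3cg (-1.63), Pik3ap1 (-1.58) and Pik3r5 (-1.32). Their adjusted p ranged from 0.0229 to 0.0489. Pik3cg and Pik3r5 encode subunits of phosphoinositide 3-kinase, and Pik3ap1 encodes an adaptor of that kinase. Of 24 genes of the phagocytic actin and oxidase machinery 5 were called lower, with a median of -0.56: the GTPase Rac2 (-2.15), Elmo1 (-1.63), Nckap1l (-1.60), Was (-1.52) and the myosin Myo1f (-1.25), with adjusted p from 0.0223 to 0.0492. Of the 16 genes called over all lists, Rac2 alone had overlapping groups. Over all genes tested, 7.54% had every Myc-knockin tumor below every p53-driven tumor. The 16 were picked by their difference in these same tumors, so their separation adds no separate evidence.

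**Figure D4:**
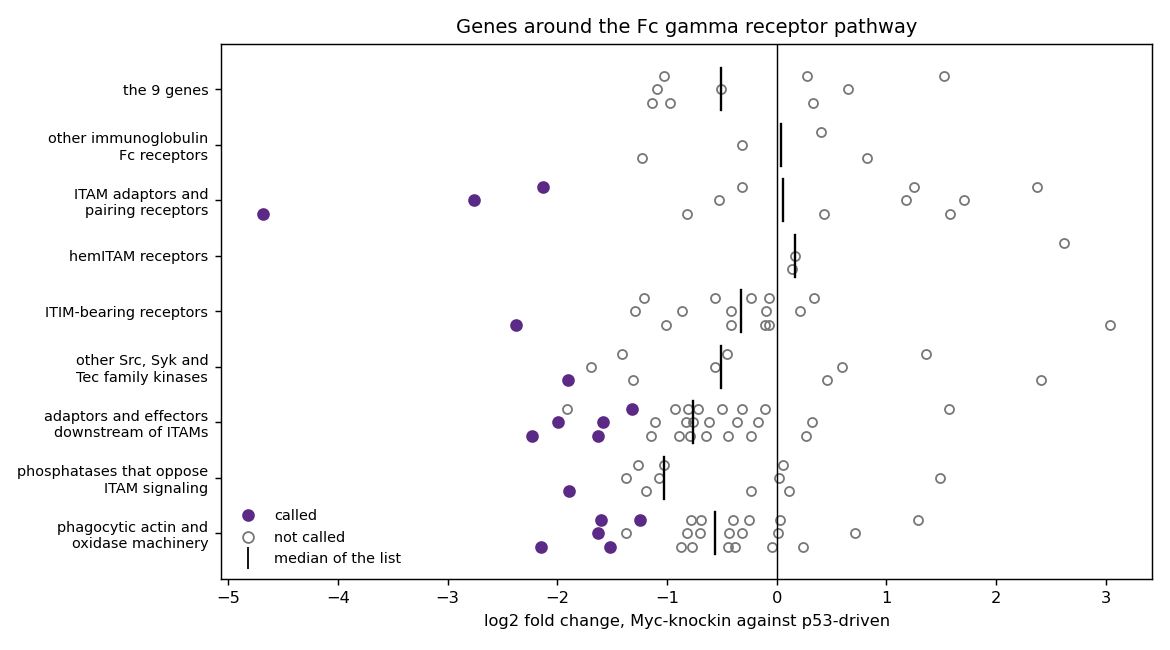
Log2 fold change (Myc-knockin against p53-driven) of the tested genes in the 9-gene group and in 8 lists around it. Each circle is a gene, filled where it was called, and black bars are list medians. Not every gene of the list drawn as phosphatases that oppose ITAM signaling opposes it. The filled circles all lie to the left of 0, from -1.25 for Myo1f to -4.68 for Oscar, and none is among the 9 genes.

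The genes whose log2 CPM ran most like the mean of the 9 standardized genes over the 9 tumors, among 9532 genes with at least 10 CPM on average, were Micu2 (Pearson's r 0.983), Tm4sf1 (0.972), Zbtb7a (0.958), Gab2 (0.956) and Slfn5 (0.947). The 5 had adjusted p from 0.272 to 0.765, and Gab2, a docking adaptor of Fc receptor signaling, had a log2 fold change of -0.64 (adjusted p = 0.272). Taken apart after the values were seen, the 4 receptors ran most like the muscle genes Hspb7 (0.938), Ankrd1 (0.932), Des (0.931) and Mb (0.924). Next came the cytokine receptor gene Il4ra (0.921). The other 5 genes ran most like Dysf (0.983), Fmnl1 (0.981), S1pr1 (0.976), Kdr (0.969) and Vamp8 (0.968). The summed skeletal muscle markers ranged from 22.1 to 5070 CPM in the p53-driven and from 5.45 to 2070 CPM in the Myc-knockin tumors, with their highest values in F325 and M408, and their part in the receptor pattern was not tested.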

How the data were processed

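RNA from 4 p53-driven and 5 Myc-knockin whole OS tumors was profiled. Per the study's methods, the authors made stranded libraries from oligo-dT-enriched mRNA. They used trimGalore for trimming, STAR for alignment to mm10 and featureCounts for counting. The values they deposited are raw counts, with no normalization. The strand setting of the counting and the treatment of reads that map to several places are not given in the sources used here. The labels do not say that each tumor came from a separate animal, so p-values measure the spread between these samples.

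Counts were analyzed in R 4.3.3 with edgeR 4.0.16 (TMM, filterByExpr with a minimum count of 10, glmQLFit and glmQLFTest, Benjamini-Hochberg adjustment over 15365 genes). Genes with an adjusted p below 0.05 and more than a 1.5-fold change were called. CPM were TMM-normalized, with a prior count of 2 on the log2 scale. Exact permutation tests were two-sided over 126 arrangements. Ratios used 0.5 added to each count. DESeq2 1.42.0 and limma 3.58.1 were alternatives, besides other scalings, filters, sets of libraries and a subtraction of genomic background, estimated from 1538 chemosensory receptor genes. The steps were tested on simulated data. Gene positions and exon lengths came from GENCODE M21, promoters from RefSeq, and 76-base stretches from the annotated transcripts.

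The floor of 3 counts came to 0.114 to 2.39 CPM, and floors cover counting error only. Background made up 5.47% (F187), 16.7% (M351) and 23.9% (M9) of the non-satellite counts and at most 0.592% in the other libraries. The 9 genes and all lists were chosen with earlier results of these data known. Named are the 9 genes, the genes called in each list or otherwise up to 4 with the highest mean CPM, the 5 genes most like the mean of the 9, and Myc and Ptprc as checks. Other genes, such as the called markers and the genes most like the receptors alone, were named after their values were seen.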

Additional observations from a re-analysis of the deposited data

Results flagged for a closer look

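Syk in F331 was flagged because it stood apart within its group. At 80.7 CPM it lay above the other 3 p53-driven tumors, which measured 35.9, 40.8 and 40.0 CPM, and its gap to the nearest of them was 0.892 of the group's range, over Dixon's 95% critical value for 4 samples. It was the only one of 24 groups of values tested, and chance flags about 1 in 20. F331 also had the highest Plcg2 (60.6 CPM) and the highest sum of osteoclast markers (14600 CPM) of the 9 tumors, and their part in its Syk level was not tested.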

How the results depend on the processing

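Of 203 log2 fold changes of the 9 genes under the alternatives, 195 kept their direction and their side of the threshold, 4 reversed and 4 passed the threshold. Without the 4 satellite libraries Fcgr2b was at -0.68 and Fcgr3 at -0.23, and without M408 at -0.45 and -0.14. With each tumor left out, Fcgr2b ranged from -0.45 to 0.71 and Fcgr3 from -0.14 to 0.65. The number of the 9 genes called, 0 by edgeR, was 1 with DESeq2, limma-voom or without the 4 satellite libraries, and 0 to 1 with each tumor left out (1 without M9). Of 39 ratio differences 36 kept their direction and 3 reversed, all Fcgr3 over Fcgr2b: it was -0.12 without M624 and M664 and -0.073 to 0.31 with each tumor left out. Ratios were judged by the p adjusted over the 3 ratios, a choice settled after the unadjusted values were seen. By the unadjusted exact permutation p, Fcgr4 over Fcgr2b (0.0317) was under 0.05 in 3 of its 13 alternatives and over it in 10, among them the subtraction of background (difference 0.84, p = 0.111) and the fit without M624 and M664 (0.81, p = 0.114). Fcgr4 did not pass the filter without M408 or M664, and Fcgr1 and Fcgr4 did not when 10 counts were required in every tumor. The cause of these changes was not tested.

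Over all genes, 809 were called by edgeR, 136 with library size alone, 494 without a filter, 1316 with 10 counts in every tumor, 2670 with DESeq2, 1663 with limma-voom, 4595 without the 4 satellite libraries, 2016 with library type as a covariate, and 5 (without F368) to 1588 (without M9) with each tumor left out. The share of calls that were higher in Myc-knockin tumors was 43.0%, against 64.5% with upper-quartile normalization, 59.7% with 10 counts in every tumor, 58.0% with DESeq2, 56.5% without the satellite libraries and 59.9% with the covariate. Of the genes in the 8 lists, 16 were called, against 1 with library size alone, 30 with DESeq2 and 0 to 18 with each tumor left out. This count, chosen for alternatives after seeing the data, was lowest without F325, F331 or F368. No paired analysis was possible because the table's columns carry none of the replicate numbers in the labels.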
